A study of Mus musculus with 10 samples.

Results

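Natural killer (NK) cells are innate lymphocytes that recognise other cells through activating and inhibitory surface receptors, and the uterus holds a large tissue-resident population of them. Their survival and growth depend on interleukin-15 (IL-15), a cytokine that stromal and myeloid cells display bound to the IL-15 receptor alpha chain and that NK cells receive through the beta and gamma chains they share with the interleukin-2 receptor. The transcription factors EOMES and T-bet direct NK cell identity. The genes described here were 10 of these components, chosen by name from the deposited table of 29268 genes, and all 10 passed the filter on low counts that left 16993 genes for testing. They comprise the receptors Klrb1c, Klrd1, Klrk1 and Ncr1, the receptor chains Il2rb and Il2rg, Il15 and Il15ra, and the lineage factors Eomes and Tbx21.

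The samples were the uteri of 5 HSD17B1TG and 5 wild-type (WT) females of the FVB/N strain, all 4 months old, with 1 RNA-seq library per mouse. HSD17B1TG mice carry a human cDNA of HSD17B1, an enzyme that converts estrone to the more potent estradiol, in the heterozygous state and under a promoter active in most tissues, so that the transgene is not limited to the uterus. The study's methods describe the transgenic females as not cycling, whereas WT uteri were taken without regard to cycle stage. Genotype and cycle stage therefore cannot be told apart. HSD17B1TG mice are called TG1 to TG5, and WT mice WT1 to WT5, by rising animal number in the labels, which pairs no mice. Between 14817228 and 23271988 counts fell on genes per mouse. Human transgene reads were not analysed here, and the mouse gene Hsd17b1 lay at 0.456 to 1.42 FPKM (fragments scaled to gene length and to library size) in WT and 0.754 to 1.32 FPKM in HSD17B1TG. Markers of endometrial epithelium (Krt8, 197 ± 128 FPKM in WT and 465 ± 210.3 FPKM in HSD17B1TG) and of uterine stroma (Hoxa10, 133 ± 73.4 FPKM in WT and 30.4 ± 10.7 FPKM in HSD17B1TG; mean ± SD, n = 5 in each group) were abundant in both genotypes.

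All 10 genes had lower mean levels in the HSD17B1TG uterus. Ncr1, Il2rb, Il15 and Eomes were called lower, that is with an adjusted p under 0.05 in the edgeR quasi-likelihood test over all genes, a fold change over 2 and a mean above 1 FPKM in either group, whereas Klrb1c, Klrd1, Klrk1, Il2rg, Il15ra and Tbx21 were not called. Thus 4 of 10 were called lower and 0 higher, while 2.08% of all genes tested were called lower and 2.16% higher. These counts are descriptions, since a gene that passes the filter on low counts only through the group where it is high is bound to differ. Klrb1c, Eomes and Tbx21 reached the level of the filter in 1 of 5 HSD17B1TG mice, Klrd1 in 4 and the other 6 genes in all 5, and each of the 10 reached it in 5 of 5 WT mice. With every gene of at least 1 count kept, 4 members were called lower. Unadjusted, 9 of the 10 had p under 0.05 toward lower levels, as did 11.4% of all genes. The log2 fold changes (HSD17B1TG minus WT) ran from -3.81 to -1.02 with a median of -2.41, beside a median of 0.0021 over all genes tested. DESeq2 called 6 of the 10 lower, adding Klrd1 and Il2rg, against 3.87% of all genes. The calls depended on single mice: with 1 mouse left out, 0 members were called when that mouse was TG4, TG5, WT1, WT2, WT3 or WT5, 3 without TG2 or TG3, 4 without TG1 and 6 without WT4. The calls over all genes moved in the same fits, from 354 lower to between 27 and 145 in the 6 fits with 0 members called, 60 without TG2, 528 without TG3, 575 without TG1 and 666 without WT4. In bulk tissue a smaller number of NK cells and less RNA per cell cannot be told apart.

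**Figure D1:**
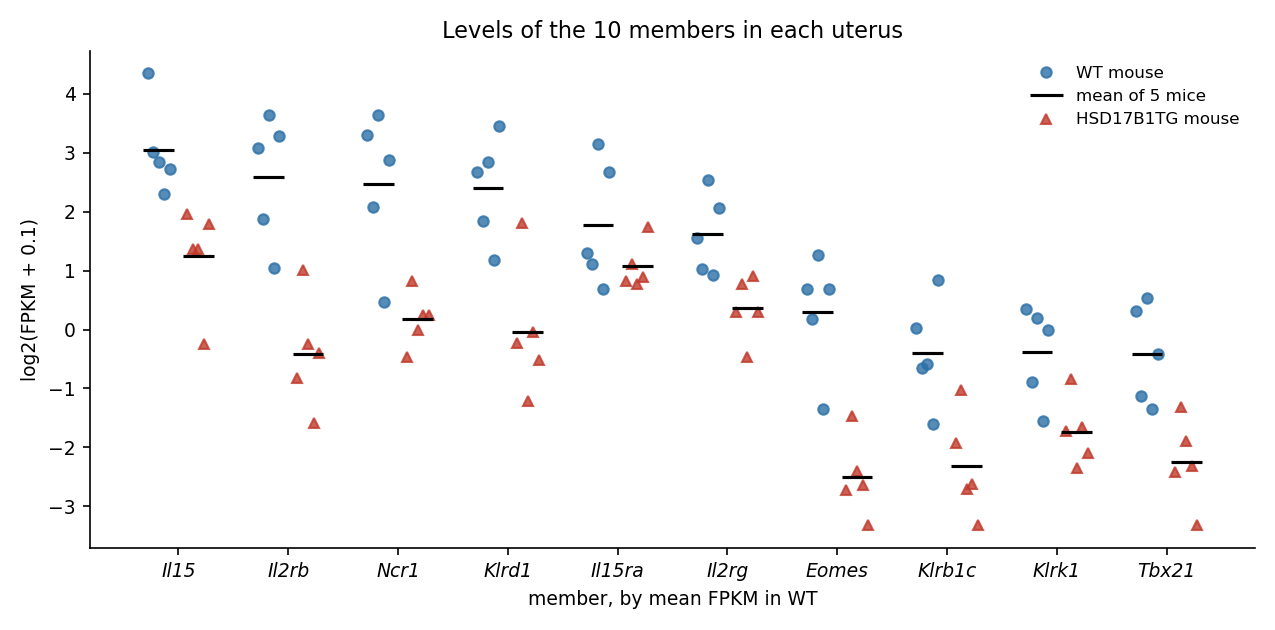
Level of each of the 10 genes in every uterus as log2(FPKM + 0.1) on the vertical axis, with 1 circle per WT mouse, 1 triangle per HSD17B1TG mouse and a bar at the mean of 5 mice. The groups do not overlap for Il15, Il2rb, Il2rg and Eomes, and for each gene the lowest WT point is WT4.

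Ncr1 (ENSMUSG00000062524, chr7:4337724-4345164, plus strand; GRCm38 throughout) encodes the activating receptor NKp46, a marker of NK cells and related innate lymphoid cells. Its level was 9.8, 4.14, 12.3, 1.29 and 7.29 FPKM in WT1 to WT5 and 0.627, 1.68, 0.897, 1.09 and 1.08 FPKM in TG1 to TG5. WT3 and WT1 were highest and WT4 stood below TG2, so that the groups overlapped by this pair of mice. Means were 6.97 ± 4.39 FPKM in WT and 1.08 ± 0.387 FPKM in HSD17B1TG (SD, n = 5 each), 6.48-fold lower by the fitted values (log2 fold change -2.70 ± 0.55, adjusted p = 0.0268; here and below ± marks the standard error of a log2 fold change). The edgeR standard errors were taken as the size of the log2 fold change over the square root of its F statistic. The call of Ncr1 was lost without TG2, TG4, TG5, WT1, WT2, WT3 or WT5.

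The 250 bases before the RefSeq start of Ncr1 (chr7:4337474-4337723, GRCm38.p6, plus strand) are shown because T-box factors such as EOMES and T-bet bind a core written GGTGTGA, and Eomes and Ncr1 were both among the genes called lower. The upstream sequence of Eomes (chr9:118477939-118478188, plus strand) is given with it for comparison. Capitals mark the pair of GAAA cores with 2 bases between them (GAAANNGAAA, either strand), which resembles the element bound by interferon regulatory factors.
Ncr1: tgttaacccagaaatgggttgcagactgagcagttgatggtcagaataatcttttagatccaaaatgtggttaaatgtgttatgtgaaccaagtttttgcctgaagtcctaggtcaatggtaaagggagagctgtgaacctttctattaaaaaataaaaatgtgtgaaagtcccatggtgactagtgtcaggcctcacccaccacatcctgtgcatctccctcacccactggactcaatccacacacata
Eomes: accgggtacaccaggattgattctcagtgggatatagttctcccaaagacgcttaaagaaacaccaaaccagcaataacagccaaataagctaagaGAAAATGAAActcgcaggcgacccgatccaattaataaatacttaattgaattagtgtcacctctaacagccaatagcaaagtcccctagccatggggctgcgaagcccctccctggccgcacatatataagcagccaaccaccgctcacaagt
The promoter table used here held windows for 7 of the 10 genes (9 windows), and windows of Klrd1, Il2rb and Il15 were not used here. The T-box core, searched on both strands, was found in 0 of the 9 windows and in 3.33% of the 32851 windows of the whole table. The GAAA pair was found in 1 of the 9, that of Eomes, where it began 154 bases before the start, and in 2.98% of all windows. The motifs do not overlap one another in these windows, and a match or its absence describes the letters only.

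The other 3 receptors belong to the NK gene complex on chromosome 6, whose lectin-like genes differ between mouse strains, and reads of FVB/N mice were mapped to a reference of another strain. Klrd1 (ENSMUSG00000030165, chr6:129591782-129598775, plus strand) encodes CD94, the partner chain of the NKG2 receptors. It lay at 6.29, 3.49, 7.07, 2.15 and 10.9 FPKM in WT1 to WT5 and at 0.754, 3.41, 0.332, 0.871 and 0.602 FPKM in TG1 to TG5. Only TG2 reached into the WT range, where it exceeded WT4. With 5.97 ± 3.39 FPKM against 1.19 ± 1.26 FPKM the difference was not called in edgeR (log2 fold change -2.32 ± 0.66, adjusted p = 0.0591) but was called in DESeq2 (adjusted p = 0.00405).

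Klrb1c (ENSMUSG00000030325, chr6:128778485-128789215, minus strand) encodes the antigen NK1.1 and has close paralogs in the same cluster, so that its counts are uncertain where reads match several copies. The annotation also places the transcript of Gm44511 over it on the same strand. Its counts were low, 67, 30, 27, 14 and 103 in WT1 to WT5 and 9, 20, 3, 3 and 0 in TG1 to TG5. These correspond to 0.92, 0.533, 0.565, 0.229 and 1.7 FPKM in WT and 0.163, 0.388, 0.0538, 0.0628 and 0 FPKM in HSD17B1TG, where a count of 0 in TG5 allows up to 0.0651 FPKM (3 counts; counting error only). TG2 alone exceeded a WT mouse, again WT4. Neither group averaged 1 FPKM, which excluded Klrb1c from the calls whatever its p (log2 fold change -2.54 ± 0.82, adjusted p = 0.0838 in edgeR and 0.0162 in DESeq2).

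Klrk1 (ENSMUSG00000030149, chr6:129610323-129623864, minus strand) encodes NKG2D, an activating receptor for stress-induced ligands. Its level lay between 0.243 and 1.17 FPKM in WT (median 0.89) and between 0.0962 and 0.456 FPKM in HSD17B1TG (median 0.202). TG2 exceeded both WT2 and WT4, and the other HSD17B1TG mice were below all WT mice. Klrk1 also averaged under 1 FPKM in both groups and was not called (log2 fold change -1.78 ± 0.53, adjusted p = 0.066 in edgeR and 0.00883 in DESeq2).

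Eomes (ENSMUSG00000032446, chr9:118478212-118486132, plus strand), the T-box factor of conventional and many uterine NK cells, had the lowest log2 fold change of the 10. Counts were 154, 81, 154, 25 and 128 in WT1 to WT5 and 4, 19, 7, 4 and 0 in TG1 to TG5. As FPKM these were 1.51, 1.03, 2.3, 0.291 and 1.5 in WT and 0.0516, 0.263, 0.0895, 0.0597 and 0 in HSD17B1TG, and the 0 in TG5 allows up to 0.0464 FPKM. The groups did not overlap, although WT4 exceeded TG2 by only 25 against 19 counts. The fitted difference was 14-fold (log2 fold change -3.81 ± 0.80, adjusted p = 0.0292), and the call was lost without TG4, TG5, WT1, WT2, WT3 or WT5. A gene on the other strand, Gm33460, overlaps Eomes with 2 to 7 counts in WT and 2 to 9 in HSD17B1TG.

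Tbx21 (ENSMUSG00000001444, chr11:97098071-97115331, minus strand) encodes T-bet, the T-box factor that NK cells share with type 1 innate and helper T lymphocytes. It counted 70, 17, 54, 15 and 33 in WT1 to WT5 and 4, 13, 8, 4 and 0 in TG1 to TG5. TG2, at 0.3 FPKM, was above WT4, at 0.292 FPKM, and all other HSD17B1TG mice were below the WT range. Tbx21 averaged under 1 FPKM in both groups and was not called (log2 fold change -2.50 ± 0.72, adjusted p = 0.0622 in edgeR and 0.00575 in DESeq2).

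Of the IL-15 axis, Il15 itself (ENSMUSG00000031712, chr8:82331632-82403222, minus strand) was called lower. WT1 to WT5 held 20.3, 7.96, 7.1, 4.82 and 6.5 FPKM and TG1 to TG5 held 3.77, 2.47, 2.47, 0.741 and 3.35 FPKM. WT1 stood far above the other WT mice and TG4 below the other HSD17B1TG mice, and the groups did not overlap. The means of 9.33 ± 6.22 and 2.56 ± 1.16 FPKM differed 3.65-fold in the fit (log2 fold change -1.87 ± 0.48, adjusted p = 0.0471). Without WT1 the log2 fold change was -1.40 and the call was lost (adjusted p = 0.0846 in edgeR). When other single mice were left out, the call of Il15 held without TG1 or WT4 and was otherwise lost.

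Il15ra (ENSMUSG00000023206, chr2:11705290-11734317, plus strand), the alpha chain that presents IL-15 to neighbouring cells, showed the smallest difference of the 10. It lay at 2.35, 2.06, 8.79, 1.51 and 6.25 FPKM in WT1 to WT5 and at 1.68, 2.07, 1.61, 1.76 and 3.24 FPKM in TG1 to TG5. WT3 and WT5 were high, whereas WT1 and WT2 lay within the range of the HSD17B1TG mice and WT4 below it. With this spread the difference was not called by edgeR or DESeq2 (log2 fold change -1.02 ± 0.48, adjusted p = 0.208 and 0.141).

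Il2rb (ENSMUSG00000068227, chr15:78479256-78495271, minus strand), the beta chain that transmits the IL-15 signal in NK cells, had the lowest adjusted p of the 10. Its level was 8.32, 3.56, 12.4, 1.97 and 9.69 FPKM in WT1 to WT5 and 0.463, 1.9, 0.744, 0.231 and 0.659 FPKM in TG1 to TG5. The groups did not overlap, but WT4 and TG2 nearly met. Il2rb averaged 7.18 ± 4.32 FPKM in WT and 0.8 ± 0.648 FPKM in HSD17B1TG (8.98-fold lower in the fit, log2 fold change -3.17 ± 0.64, adjusted p = 0.026). Leaving out TG4, TG5, WT1, WT2, WT3 or WT5 raised the adjusted p above the threshold, up to 0.069 in edgeR, with log2 fold changes of -3.36 to -2.90. The call held without TG1, TG2, TG3 or WT4.

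Il2rg (ENSMUSG00000031304, chrX:101264378-101268255, minus strand) encodes the common gamma chain, which lymphocytes use for several interleukins. WT1 to WT5 held 2.83, 1.94, 5.74, 1.81 and 4.09 FPKM and TG1 to TG5 held 1.12, 1.61, 0.623, 1.77 and 1.13 FPKM. No HSD17B1TG mouse reached a WT mouse, the closest being TG4 and WT4. Even so the change was smaller than that of Il2rb and was not called in edgeR (log2 fold change -1.39 ± 0.40, adjusted p = 0.0618; DESeq2 adjusted p = 0.0076, called). The annotation places Gm20489 over Il2rg on the same strand.

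**Figure D2:**
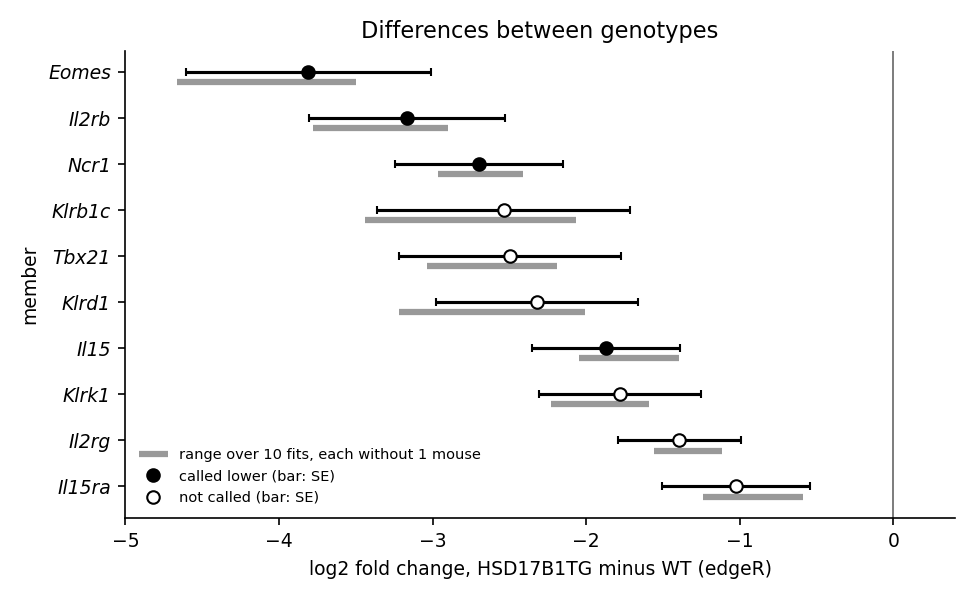
Log2 fold change of each gene, HSD17B1TG minus WT, from edgeR, with its standard error. Filled points mark the 4 genes called lower, and the grey bar below each point spans the log2 fold changes of 10 fits that each left out 1 mouse. All points and grey bars lie below 0, the points from -3.81 for Eomes to -1.02 for Il15ra and the grey bars between -4.66 and -0.59.

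Across mice, groups did not overlap for 4 of the 10 genes (Il2rb, Il2rg, Il15 and Eomes), while 2.65% of all genes tested were lower in every HSD17B1TG mouse than in every WT mouse. WT4 was the lowest WT mouse for 10 of 10 genes and TG2 the highest HSD17B1TG mouse for 7 of 10, and the overlaps of Ncr1, Klrd1, Klrb1c, Klrk1 and Tbx21 all came from TG2. An exact permutation test on log2(FPKM + 0.1), two-sided and over every way to divide the mice, gave an unadjusted p = 0.00794 for Il2rb, Il2rg, Il15 and Eomes, the smallest it can give. Any gene whose groups do not overlap gets this p, so it restates the separation above. The same exact test gave p = 0.0159 for Ncr1, Klrd1, Klrb1c and Tbx21, p = 0.0238 for Klrk1 and p = 0.246 for Il15ra. Klrb1c, Eomes and Tbx21 reached the level of the filter in 1 of 5 HSD17B1TG mice, so their p-values are descriptions only.

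Levels between genes were compared as FPKM, which accounts for gene length. Over all 10 mice the order of mean level was Il15, Ncr1, Il2rb, Klrd1, Il15ra, Il2rg, Eomes, Klrk1, Klrb1c and Tbx21. Of the 9 pairs of neighbours only Il2rg and Eomes differed beyond their spread, with means of 2.27 and 0.709 FPKM and Il2rg higher in 10 of 10 mice (two-sided exact sign-flip permutation test of the within-mouse log2 difference, p = 0.00195, adjusted over the 9 pairs 0.0176). For the other 8 pairs the adjusted p lay between 0.111 and 0.91. The mean log2 difference ran opposite to the order of mean FPKM for Il2rb and Klrd1 (-0.095), Klrd1 and Il15ra (-0.25), Eomes and Klrk1 (-0.052) and Klrb1c and Tbx21 (-0.026). The test pooled both genotypes, although ranks differed between them. By mean, Il15 ranked first of the 10 in both genotypes, but its WT mean includes the high WT1, and its WT median of 7.1 FPKM was below those of Il2rb (8.32 FPKM) and Ncr1 (7.29 FPKM). Also by mean, Eomes ranked 7 in WT and 10 in HSD17B1TG, Il2rb 2 and 6, and Il15ra 5 and 2.

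Ratios of genes within the same mouse asked whether one gene moved relative to another. They were formed as log2 ratios of CPM (counts scaled to the library total, adjusted by TMM) with a prior count of 2 and tested by the two-sided exact permutation test, with Benjamini-Hochberg adjustment over the 7 ratios. Relative to Ptprc, the leucocyte antigen CD45, Il2rb had a log2 ratio of -0.06, -0.84, 0.13, -0.96 and -0.31 in WT1 to WT5 and -3.24, -1.35, -2.55, -3.59 and -2.16 in TG1 to TG5. The groups did not overlap, and the ratio was 4.5-fold lower in HSD17B1TG (exact permutation, p = 0.00794, adjusted p = 0.0278, lower than the WT mean in 5 of 5 mice). For Ncr1/Ptprc the mean log2 ratio was -1.98 ± 0.70 in WT and -3.33 ± 0.60 in HSD17B1TG, with overlap between the groups (exact permutation, p = 0.0317, adjusted p = 0.037). For Klrb1c/Ptprc, which rests on 0 to 20 counts of Klrb1c in HSD17B1TG mice, it was -4.05 ± 0.56 in WT and -5.55 ± 1.09 in HSD17B1TG, and the difference of -1.50 was -2.08 with a prior count of 0.5 and -1.003 on log2(FPKM + 0.1), so it is given as values only. Ptprc itself was not called in edgeR (1.98 ± 0.794 FPKM in WT and 0.939 ± 0.211 FPKM in HSD17B1TG; log2 fold change -1.08 ± 0.30, adjusted p = 0.0558) but was called lower in DESeq2 (adjusted p = 0.00962).

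The ratio of Ncr1 to Cd3e, a chain of the T cell receptor complex, rests on 1 chosen T cell gene and is given as values only. The log2 ratio was 4.40 ± 1.87 in WT and 1.22 ± 0.83 in HSD17B1TG. Cd3e was near the detection limit, at 0.0831 ± 0.0468 FPKM in WT and 0.164 ± 0.0737 FPKM in HSD17B1TG, and was removed by the filter on low counts, so this ratio rests on few Cd3e reads. The other CD3 chains had lower means in HSD17B1TG, with Cd3g at 1.4 ± 0.867 FPKM in WT and 0.626 ± 0.247 FPKM in HSD17B1TG and Cd3d at 0.29 ± 0.169 FPKM in WT and 0.251 ± 0.166 FPKM in HSD17B1TG, and neither was called in edgeR (adjusted p = 0.199 and 0.855).

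The ratio of Eomes to Tbx21 rests on few counts in HSD17B1TG and is given as values only. In WT1 to WT5 the log2 ratio was 1.11, 2.13, 1.48, 0.66 and 1.89, and in TG1 to TG5 it was 0.00, 0.49, -0.15, 0.00 and 0.00. All WT mice had more counts of Eomes than of Tbx21, whereas TG1 and TG4 had 4 of each and TG5 had 0 of each. At so few counts the prior count pulls the HSD17B1TG ratios toward 0, which in TG5 is the value for a pair of undetected genes, so no difference between the genotypes is read from this ratio.

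Among receptor chains, Il2rb fell relative to Il2rg, with a mean log2 ratio of 1.81 ± 0.54 in WT and -0.04 ± 1.25 in HSD17B1TG (exact permutation, p = 0.0238, adjusted p = 0.037). TG2 and TG3, at 1.06 and 1.05, overlapped WT4. For Il15 over Il15ra the log2 ratio was 0.32 ± 1.40 in WT and -0.79 ± 0.87 in HSD17B1TG, a difference of -1.11 that did not pass the test (exact permutation, p = 0.19, adjusted p = 0.19). With 9 mice the smallest possible p is 0.0159. The adjusted p of each of the other 6 ratios, Eomes/Tbx21 included, rose above 0.05 in at least 7 of the 10 fits that left out 1 mouse. At that smallest p the adjusted value depends on how many of the 7 ratios also reach it. These rises therefore do not by themselves show that a ratio rested on single mice.

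**Figure D3:**
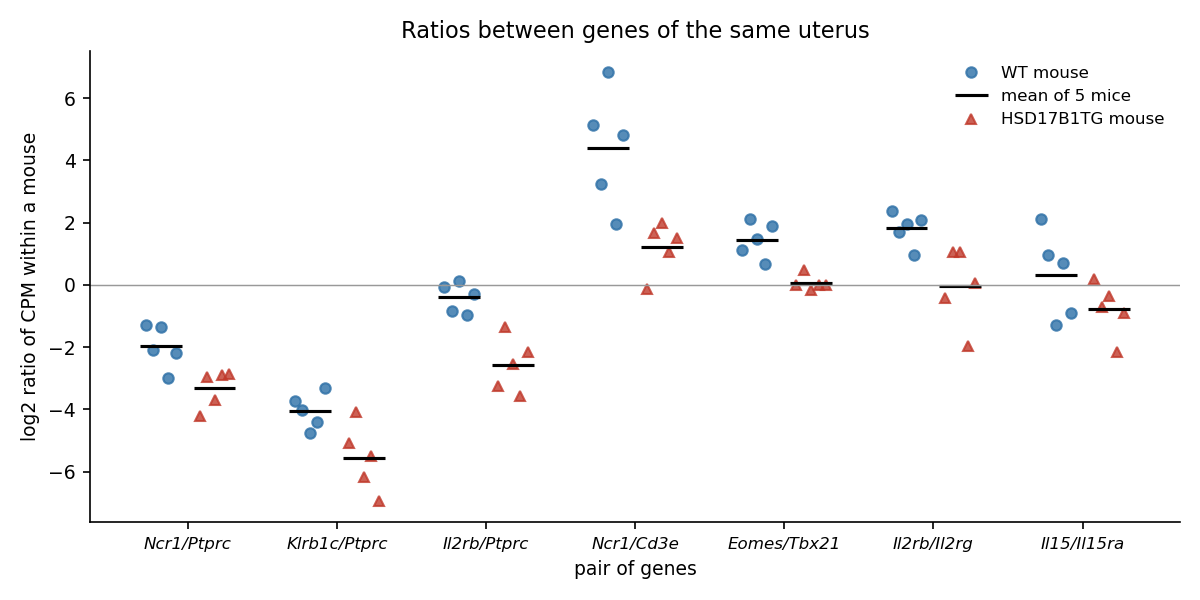
Log2 ratio of the CPM of 2 genes within each uterus (vertical axis) for 7 pairs of genes, with 1 circle per WT mouse, 1 triangle per HSD17B1TG mouse and a bar at the mean of 5 mice. The groups are apart for Il2rb/Ptprc and overlap for 5 other pairs. The HSD17B1TG points of Eomes/Tbx21 and Klrb1c/Ptprc rest on 0 to 20 counts and the prior count.

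The genes with the most similar patterns over the 10 mice were taken as those with the smallest root-mean-square difference of mean-centred log2 CPM among all genes tested. The centring used the mean of all 10 mice and kept the genotype difference, so genes with a like fold change rank as similar. For Il2rb they were Nkg7, Klrg1, Prf1, Tigit and Mfap5, with differences of 0.269 to 0.636 beside a median of 1.89 over all genes. Nkg7 and Prf1 encode a granule membrane protein and perforin, and Klrg1 and Tigit inhibitory receptors. For Ncr1 they included Txk, Fmo1, Mfap5 and Cpne7 (0.43 to 0.535, median of all genes 1.5), of which Txk encodes a lymphocyte tyrosine kinase and Mfap5 a microfibril protein. For Il15 they were Adam12, Igdcc3, AC160336.1, 4930570G19Rik and Kdelr3 (0.53 to 0.629, median of all genes 1.26), Adam12 being a metalloprotease of mesenchymal cells. Some of these genes had low levels, with AC160336.1 at 0.038 FPKM in WT and 0.0083 FPKM in HSD17B1TG and Txk at 0.269 FPKM in WT and 0.0622 FPKM in HSD17B1TG.

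The cytotoxic machinery was described by 15 granule and effector genes. Of these 14 were in the table and 10 passed the filter, of which 6 were called lower and 0 higher, with a median log2 fold change of -3.76. These counts and those of the lists that follow are descriptions, for the reason given for the members. Of the 17 genes called in the 8 related lists, 3 (Prf1, Gzmc and Vav1) kept their call in all 10 fits that left out 1 mouse, and the others in 1 to 6 of them. Perforin (Prf1) lay at 4.89 ± 2.86 FPKM in WT and 0.269 ± 0.18 FPKM in HSD17B1TG (log2 fold change -4.17 ± 0.64, adjusted p = 0.0177 in edgeR). Granzyme B (Gzmb) lay at 19.8 ± 18.7 FPKM in WT and 0.93 ± 1.16 FPKM in HSD17B1TG (log2 fold change -4.42 ± 1.14, adjusted p = 0.0471). Gzmc, a granzyme of activated killer cells, showed the lowest log2 fold change of the list, at 7.51 ± 6.17 FPKM in WT and 0.0514 ± 0.115 FPKM in HSD17B1TG (log2 fold change -6.99 ± 1.03, adjusted p = 0.0167), and Gzmd was called with it (log2 fold change -5.70 ± 1.13, adjusted p = 0.0256). Xcl1, a chemokine made by NK cells, lay at 10.9 ± 7.11 FPKM in WT and 0.283 ± 0.414 FPKM in HSD17B1TG (log2 fold change -5.20 ± 0.94, adjusted p = 0.0219), and Nkg7 at 9.87 ± 5.47 FPKM in WT and 0.96 ± 0.904 FPKM in HSD17B1TG (log2 fold change -3.35 ± 0.67, adjusted p = 0.026). Like the members, the list summed lowest in WT4 among WT mice and highest in TG2 among HSD17B1TG mice. WT4 was also the lowest WT mouse for the summed leucocyte, T cell, B and plasma cell, dendritic cell and endothelial markers described below. It was the highest WT mouse for epithelial, smooth muscle and neutrophil markers, and neither for stromal and macrophage markers.

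Of 34 other NK receptors, 31 were in the table and 14 passed the filter. Of those 14, 3 were called lower and 0 higher, with a median log2 fold change of -1.60. Klrg1, an inhibitory receptor of mature NK cells, averaged 3.73 ± 2.57 FPKM in WT and 0.176 ± 0.161 FPKM in HSD17B1TG (log2 fold change -4.36 ± 0.81, adjusted p = 0.0224). Tigit, which binds nectin family ligands, averaged 1.73 ± 0.987 FPKM in WT and 0.15 ± 0.0974 FPKM in HSD17B1TG (log2 fold change -3.47 ± 0.63, adjusted p = 0.0224), and Klre1, a lectin-like receptor of the NK gene complex, 1.06 ± 0.518 FPKM in WT and 0.144 ± 0.123 FPKM in HSD17B1TG (log2 fold change -2.86 ± 0.71, adjusted p = 0.0429). The 17 receptors that did not pass the filter included Klrc1 and Klrc2, the NKG2 partners of CD94, with Klrc1 at 0.181 ± 0.114 FPKM in WT and 0.0531 ± 0.064 FPKM in HSD17B1TG and Klrc2 at 0.0644 ± 0.0576 FPKM in WT and 0.00961 ± 0.0121 FPKM in HSD17B1TG.

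Of 17 adaptors and kinases below NK receptors, 15 were tested, with 1 called higher and 0 lower in edgeR, 2 higher and 0 lower in DESeq2 and a median log2 fold change of -0.55. The gene called in edgeR was Vav1, an exchange factor used throughout the blood lineages, at 2.04 ± 0.512 FPKM in WT and 7.39 ± 2.63 FPKM in HSD17B1TG (log2 fold change 1.85 ± 0.30, adjusted p = 0.0177). Of a list for IL-15 and interleukin-2 signalling, which holds kinases, STAT5 and its targets and also the related cytokine and receptor genes Il7, Il7r and Il2ra, 20 genes were tested, and the median log2 fold change was 0.22. Of these, 14 had a log2 fold change above 0, and 5 were higher and 2 lower at an unadjusted p under 0.05. In edgeR 1 was called lower and 0 higher, and in DESeq2 1 lower and 1 higher. Myc, a growth regulator expressed in many cell types, was the gene called lower in edgeR (32.9 ± 15.9 FPKM in WT and 13.9 ± 1.76 FPKM in HSD17B1TG; log2 fold change -1.25 ± 0.33, adjusted p = 0.0498), and its call held in 4 of 8 other settings with all mice and, with 1 mouse left out, only without WT4. Pim1, a survival kinase, was the gene called higher in DESeq2 (adjusted p = 0.0431), at 14.5 ± 8.41 FPKM in WT and 32.3 ± 11 FPKM in HSD17B1TG, and was not called in edgeR (log2 fold change 1.16 ± 0.41, adjusted p = 0.104). Among 17 lineage factors tested beside Eomes and Tbx21, 4 were called lower and 0 higher (median -0.68). Prdm1, which encodes BLIMP1, averaged 9.7 ± 3.63 FPKM in WT and 2.08 ± 0.947 FPKM in HSD17B1TG (log2 fold change -2.23 ± 0.39, adjusted p = 0.0211), and Nfil3, required for NK cell development, 16.8 ± 7.58 FPKM in WT and 5.39 ± 0.916 FPKM in HSD17B1TG (log2 fold change -1.64 ± 0.35, adjusted p = 0.0305). Ets1 (log2 fold change -1.13 ± 0.28, adjusted p = 0.0445) and Zeb2 (log2 fold change -1.06 ± 0.27, adjusted p = 0.0471) were called too, and these 4 factors are also expressed outside the NK lineage. Of the ligands of NK receptors 11 were tested and 0 were called in edgeR, with 0 lower and 2 higher at an unadjusted p under 0.05, and DESeq2 called 1 higher and 0 lower. The nearest to a call was Clec2f, a lectin-like ligand, at 0.844 ± 0.906 FPKM in WT and 3.67 ± 2.37 FPKM in HSD17B1TG (log2 fold change 2.09 ± 0.79, adjusted p = 0.124).

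**Figure D4:**
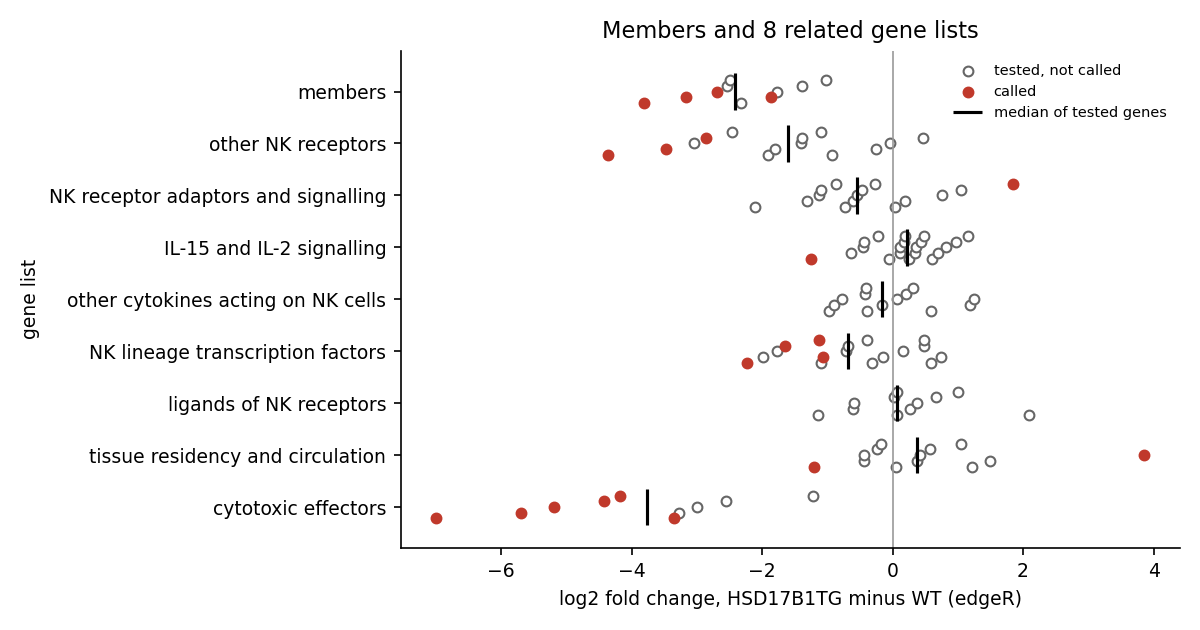
Log2 fold change (HSD17B1TG minus WT, edgeR) of every tested gene in the members and in 8 related lists, with filled points for genes called and a vertical bar at each list's median. The medians lie at -3.76 for cytotoxic effectors, -2.41 for the members and -1.60 for other NK receptors, and between -0.68 and 0.37 for the other lists.

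Markers of some other cell types, mainly of stroma, were called in edgeR as well. Of 9 stromal markers 5 were called lower and 0 higher (median log2 fold change -1.46), among them Col3a1 (512 ± 96.1 FPKM in WT and 188 ± 104 FPKM in HSD17B1TG; log2 fold change -1.46 ± 0.37, adjusted p = 0.0445). With 1 mouse left out, Col3a1 kept its call in 2 of 10 fits and the most stable of these 5 in 9. The other markers were not called, among them Dcn (242 ± 106 FPKM in WT and 227 ± 128 FPKM in HSD17B1TG; log2 fold change -0.10 ± 0.45) and Lum (187 ± 66.9 FPKM in WT and 267 ± 201 FPKM in HSD17B1TG; log2 fold change 0.51 ± 0.45). The 9 markers summed to 1866 to 2260 FPKM in WT and 525 to 2114 FPKM in HSD17B1TG, with TG1 within the WT range. None of the stromal markers were at 0. Relative to the mean log2 CPM of all 9 markers in the same mouse, called or not, a reference chosen after seeing the data, Il15 differed by -0.58 on the log2 scale (exact permutation, p = 0.365) and Ncr1 by -1.08 (exact permutation, p = 0.159), neither of which passed the test. Without TG1 these differences were -0.52 for Il15 and -0.68 for Ncr1, and without WT4 -0.71 and -1.53. Il2rb differed by -1.91 (exact permutation, p = 0.0476, unadjusted among 4 such tests), and by -1.55 without TG1 and -2.24 without WT4. For Eomes, with 0 to 19 counts in HSD17B1TG mice, the difference of -2.41 (-2.11 without TG1 and -2.81 without WT4) rests on few counts, in TG5 on the prior count alone, and is given as a value only.

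The 9 epithelial markers summed to 499 to 1689 FPKM in WT and 691 to 3168 FPKM in HSD17B1TG and 0 were called in edgeR (median log2 fold change 1.24, 6 higher and 0 lower at an unadjusted p under 0.05, and 3 higher and 0 lower called by DESeq2). Smooth muscle markers summed to 407 to 5776 FPKM in WT and 867 to 7350 FPKM in HSD17B1TG, highest in WT4 among WT and in TG1 among HSD17B1TG mice. Of 8 tested, 0 were called by edgeR or DESeq2 and 0 had an unadjusted p under 0.05. The leucocyte markers summed to 57.6 to 112 FPKM in WT and 72.9 to 119.8 FPKM in HSD17B1TG, but 8 of the 10 tested had a log2 fold change below 0 (median -0.39). At an unadjusted p under 0.05 there were 4 lower and 2 higher, edgeR called 2 higher and 0 lower, and DESeq2 called 2 higher and 2 lower. Those called higher in edgeR were Laptm5 and Arhgdib (log2 fold change 1.28 ± 0.28, adjusted p = 0.0312 and log2 fold change 1.53 ± 0.31, adjusted p = 0.026). With 1 mouse left out, each kept its call in 4 of 10 fits. T cell markers summed to 7.05 to 18.7 FPKM in WT and 4.36 to 14.9 FPKM in HSD17B1TG, and 6 of 12 passed the filter. Trbc1, a constant region of the T cell receptor beta chain, was called lower (7.6 ± 3.87 FPKM in WT and 1.89 ± 0.665 FPKM in HSD17B1TG; log2 fold change -2.01 ± 0.44, adjusted p = 0.0336), whereas Trac, that of the alpha chain, was 0.699 ± 0.621 FPKM in WT and 3.58 ± 2.16 FPKM in HSD17B1TG and was called higher in DESeq2 (adjusted p = 0.00333) but not in edgeR (log2 fold change 2.34 ± 0.63, adjusted p = 0.0514). Neutrophil markers summed to 0.864 to 5.55 FPKM in WT and 9.67 to 16.7 FPKM in HSD17B1TG without overlap, and 0 of the 4 tested were called in edgeR (0 lower and 2 higher at an unadjusted p under 0.05, and 2 higher called by DESeq2). The part of these cell types in the levels of the 10 genes was not tested.

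**Figure D5:**
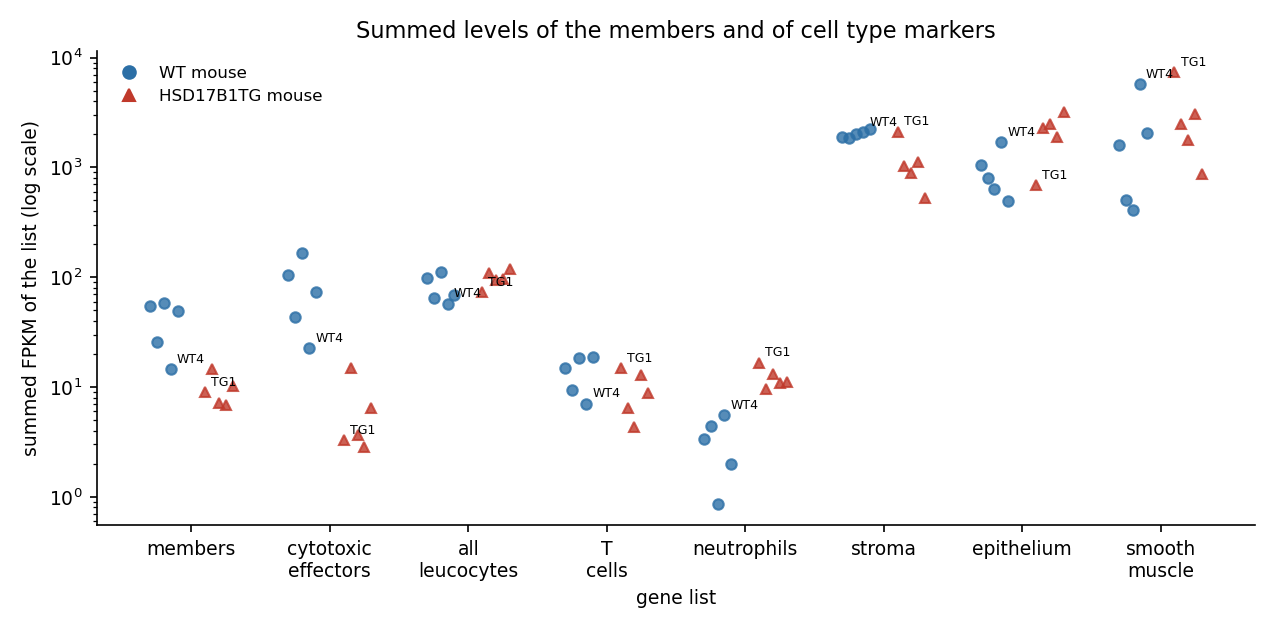
Summed FPKM per uterus, on a log scale, of the 10 members, the cytotoxic effectors and markers of 6 cell types, with 1 circle per WT mouse and 1 triangle per HSD17B1TG mouse. WT4 and TG1 are labelled, and the members sum to 14.6 to 58.6 FPKM in WT and 6.89 to 14.5 FPKM in HSD17B1TG while the stromal markers of TG1 lie within the WT range.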

How the data were processed

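Uterine RNA of 5 HSD17B1TG and 5 WT mice was sequenced by the authors as paired reads of 150 bp and mapped with HISAT2 2.0.5 to GRCm38 with Ensembl 94. How reads were counted, and whether by strand, is not given in the sources used here. The authors deposited raw counts per gene, a signal equal to the count divided by a DESeq2 size factor, and FPKM computed from gene length and a number proportional to that factor. The deposited log2 fold change and p-value columns hold the authors' own comparison and were not used, nor were a shorter table of their significant genes and their term enrichment tables.

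The test on counts was that of edgeR 4.0.16, run in R 4.3.3 (filterByExpr, TMM, quasi-likelihood F test, Benjamini-Hochberg over the 16993 genes tested). A call required an adjusted p under 0.05, more than a 2-fold change and, in at least 1 group, a mean over 1 FPKM, as the study's methods did. DESeq2 1.42.0, limma 3.58.1 (voom and log2 FPKM), other scalings, filters and thresholds, and leaving out each mouse were tried. Code was tested on simulated data. Exact permutation tests used SciPy 1.17.1 on log2(FPKM + 0.1) or on log2 ratios of CPM with a prior count of 2. Replicates were separate mice. No batch or date is labelled.

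The 10 members and all gene lists were chosen with earlier results of these data known. Named were the members, for Ncr1, Il2rb and Il15 the 5 most similar genes (1 of those of Ncr1 is not reported here), of each pathway list the genes called or otherwise among the 3 with the smallest p, and of each cell type list at most 2 with the highest mean, with Ptprc and Cd3e. Hsd17b1, Hoxa10, Dcn, Lum, Trac, Cd3d, Cd3g, Pim1, Klrc1 and Klrc2 were named beyond this rule after their values were seen. Coordinates are those of the deposited table and were the same in GENCODE M21 for 10 of 10 members.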

Additional observations from a re-analysis of the deposited data

Results flagged for a closer look

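In 34 groups of 5 mice (10 genes and 7 ratios, in each genotype), 4 held a mouse whose distance from the nearest other mouse exceeded Dixon's 95% limit for the group's range, where chance flags about 1 in 20 groups. Klrd1 was 3.41 FPKM in TG2, with the next HSD17B1TG mouse at 0.871 FPKM. Il15 was 20.3 FPKM in WT1, with the next WT mouse at 7.96 FPKM. Il15ra was 3.24 FPKM in TG5 and 2.07 FPKM in the next HSD17B1TG mouse. The log2 ratio of Eomes to Tbx21 was 0.49 in TG2 and 0.00 in the next HSD17B1TG mouse. TG1 and TG4 had 4 counts of each of these genes and TG5 had 0 of each, so the ratio is at 0.00 in all 3 by equal low counts and the range of the group is narrow.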

How the results depend on the processing

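All 180 log2 fold changes of the 10 genes over 18 alternative fits remained negative. Those fits lost 29 calls and gained 9. Members called lower numbered 4 in the edgeR fit, 2 with limma voom (Il2rb and Eomes), 4 to 6 under the other settings with all mice, and 0 to 6 with 1 mouse left out, while 0 were called higher under any of these settings. Genes of the 8 related lists called lower numbered 15, and 2 to 22 with 1 mouse left out. Those called higher numbered 2, 8 with DESeq2, 4 at an adjusted p under 0.1, and 1 to 5 with 1 mouse left out. By list, over all alternatives, those called lower ranged over 2 to 11 for cytotoxic effectors, 0 to 5 for other NK receptors and 0 to 4 for lineage factors, and over 0 to 1 for each of the other 5 lists. Those called higher ranged over 0 to 4 for tissue residency and 1 to 2 for adaptors, over 0 to 1 for IL-15 signalling, other cytokines and ligands, and were 0 for the other 3 lists. Over all genes the calls with 1 mouse left out ran from 27 lower and 38 higher (without TG5) to 666 lower and 888 higher (without WT4). With 1 mouse left out the differences in log2 ratio were -1.60 to -1.13 for Ncr1/Ptprc, -1.87 to -1.15 for Klrb1c/Ptprc, -2.48 to -1.92 for Il2rb/Ptprc, -3.79 to -2.57 for Ncr1/Cd3e, -1.58 to -1.22 for Eomes/Tbx21, -2.13 to -1.37 for Il2rb/Il2rg and -1.50 to -0.65 for Il15/Il15ra. Scaling by library totals moved the median log2 fold change of all genes to -0.17 and the calls to 494 lower and 286 higher, from 354 and 367. No paired analysis was possible because the numbers in the labels pair no mice. Klrb1c, Eomes and Tbx21 had 0 to 20 counts in HSD17B1TG mice, which limits their fold changes to coarse estimates.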

Other observations

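Cytokines other than IL-15 that act on NK cells were described by 13 tested genes, of which 0 were called in edgeR (3 lower and 2 higher at an unadjusted p under 0.05, and 0 called by DESeq2), with a median log2 fold change of -0.15. Tgfb2, a transforming growth factor, lay at 9.14 ± 3.89 FPKM in WT and 4.66 ± 2.52 FPKM in HSD17B1TG (log2 fold change -0.97 ± 0.38, adjusted p = 0.134 in edgeR). Il18rap, a chain of the interleukin-18 receptor, lay at 0.476 ± 0.377 FPKM in WT and 1.13 ± 0.41 FPKM in HSD17B1TG (log2 fold change 1.24 ± 0.50, adjusted p = 0.146).

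Markers that divide resident from circulating NK cells did not share a direction. Of 13 tested, 1 was called higher and 1 lower in edgeR and 4 higher and 1 lower in DESeq2, with a median log2 fold change of 0.37. Itgam, an integrin chain of myeloid cells and mature NK cells, rose from 2.12 ± 2.93 to 30.7 ± 15.4 FPKM (log2 fold change 3.86 ± 0.80, adjusted p = 0.0279). S1pr1, a receptor for exit from tissues that endothelium also expresses, fell from 13.4 ± 5.11 to 5.82 ± 1.86 FPKM (log2 fold change -1.20 ± 0.30, adjusted p = 0.044). Of 9 macrophage markers 1 was called higher and 1 lower, with sums of 149.7 to 224 FPKM in WT and 172 to 295 FPKM in HSD17B1TG. With 1 mouse left out, the higher call held in 3 of 10 fits and the lower call in 4. Of the markers of B and plasma cells, dendritic cells and endothelium, 0 were called in edgeR among 3, 7 and 8 tested. At an unadjusted p under 0.05 there were 1 higher and 0 lower, 0 higher and 1 lower, and 0 higher and 3 lower, and DESeq2 called 1 higher, 1 lower and 1 lower, respectively. Their sums were 5.31 to 29.8 FPKM in WT and 8.33 to 21.4 FPKM in HSD17B1TG for B and plasma cells, 4.06 to 11.6 FPKM in WT and 4.29 to 7.7 FPKM in HSD17B1TG for dendritic cells and 60.7 to 141 FPKM in WT and 23.3 to 96 FPKM in HSD17B1TG for endothelium.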
